A study of Mus musculus with 15 samples.

Results

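Out-of-frame rearrangements of the T cell receptor (TCR) β locus were described across the tumor-draining lymph node (TdLN), tumor 1 and tumor 2 of untreated mice. They are the entries whose V and J segments were joined in a shifted reading frame, and were taken as every entry that the 15 files mark as out of frame. There were 11004 of them among 29992 rearrangements, or 36.7%, and they carried 28906 of 95511 templates, the assay's estimate of input DNA molecules. These 11004 entries held 10216 distinct sequences of 87 bases. The other 18988 comprised 18625 productive rearrangements and 363 with a stop codon.

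The study sorted CD8+ PD-1+ T cells, which it calls antigen-experienced, from wild-type C57BL/6 mice bearing B16F10GP tumors on both flanks. For this assay its methods state a further CD44+ gate for tumor cells and do not mention the TdLN. The TCR β locus was sequenced from genomic DNA of the sorted cells with the immunoSEQ assay. B16F10GP is a mouse melanoma line that expresses the glycoprotein of LCMV, a mouse virus. All 15 samples were controls that received no treatment. There were 5 samples of the TdLN, which drains tumor 1, 5 of tumor 1 on the right flank, implanted first, and 5 of tumor 2 on the left flank, implanted later. Samples with the same number, 1 to 5, were taken as samples of one mouse, as the study describes paired samples. Per the study's methods the mice were female and 6 weeks old when purchased. The number of sorted cells per sample was not given in the sources used here.

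During thymic development a T cell joins a V, a D and a J segment of the TCR β locus, trimming their ends and adding untemplated N bases between them. A join that shifts the reading frame encodes no receptor, and the cell can then try the locus on its other chromosome. The failed join stays in the genome of the cell and of its descendants, so genomic DNA records it although no receptor was selected through it. An expanded clone that carries such a failed allele is therefore counted under both a productive and an out-of-frame sequence.

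The sequences below are those with most templates over the 3 tissues of each mouse, shown because the size distribution and the comparison with productive clones turn on them. Letters are 5′ to 3′ on the coding strand, V and J bases are in lower case, and capitals mark the junction with its N bases and D segment.
mouse 1, Trbv19 with Trbj1-3: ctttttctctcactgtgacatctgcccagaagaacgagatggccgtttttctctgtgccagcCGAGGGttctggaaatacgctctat
mouse 1, Trbv29 with Trbj2-1: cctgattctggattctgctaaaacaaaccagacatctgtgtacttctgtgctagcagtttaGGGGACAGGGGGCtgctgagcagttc
mouse 2, Trbv13-1 with Trbj2-7: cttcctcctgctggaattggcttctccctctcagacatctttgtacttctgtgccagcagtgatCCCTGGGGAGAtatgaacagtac
mouse 2, Trbv22 with Trbj1-5: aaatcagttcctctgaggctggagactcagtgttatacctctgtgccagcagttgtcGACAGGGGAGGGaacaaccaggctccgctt
mouse 3, Trbv20 with Trbj1-2: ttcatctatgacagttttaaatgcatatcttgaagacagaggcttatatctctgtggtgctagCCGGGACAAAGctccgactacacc
mouse 3, Trbv12-2 with Trbj2-5: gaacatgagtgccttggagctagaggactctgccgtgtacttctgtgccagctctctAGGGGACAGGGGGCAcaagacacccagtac
mouse 4, Trbv5 with Trbj2-7: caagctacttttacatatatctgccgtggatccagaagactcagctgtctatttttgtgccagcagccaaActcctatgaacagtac
mouse 4, Trbv3 with Trbj1-4: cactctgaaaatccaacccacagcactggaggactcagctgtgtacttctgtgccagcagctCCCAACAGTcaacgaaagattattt
mouse 5, Trbv19 with Trbj2-7: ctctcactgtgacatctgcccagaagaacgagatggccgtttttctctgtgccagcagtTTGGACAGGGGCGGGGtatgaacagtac
mouse 5, Trbv3 with Trbj2-3: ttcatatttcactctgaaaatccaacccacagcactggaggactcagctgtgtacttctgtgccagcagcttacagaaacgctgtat

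Each of these V and J parts was placed by exact match on chromosome 6 of GRCm38. The V part of the Trbv13-1 rearrangement of mouse 2 lies at chr6:41116404-41116467, in exon 2 of Trbv13-1, and its J part at chr6:41543814-41543825 in Trbj2-7. The V part of the Trbv22 rearrangement of the same mouse lies at chr6:41212478-41212534, in a gene that GENCODE classes as a V pseudogene, and its J part at chr6:41535085-41535102 in Trbj1-5. That of Trbv20 in mouse 3 lies at chr6:41188912-41188974, in exon 2. Junctions ranged from the rearrangement of Trbv3 with Trbj2-3 in mouse 5, which has no N base and no D segment, to that of Trbv19 with Trbj2-7 in mouse 5, with 7 N bases.

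Samples differed in depth and some shared sequences with other mice, which bears on the results below. Total templates ran from 4909 to 13848 for TdLN, from 5382 to 7946 for tumor 1 and from 338 to 5401 for tumor 2, where the lowest was mouse 4. Of the 10216 distinct out-of-frame sequences, 192 occurred in samples of more than 1 mouse, of which 184 involved a tumor and 38 had at least 20 templates in a sample. Of out-of-frame entries, 1.27% for TdLN, 10.7% for tumor 1 and 26.9% for tumor 2 were found in another mouse. Of productive entries it was 2.02%, 15.8% and 32.3%, so that such sharing was not particular to out-of-frame ones. The most, 101, lay between tumor 2 of mouse 1 and that of mouse 2, where they held 77.9% and 85.0% of their out-of-frame templates, beside 143 common productive sequences. A further 49 linked tumor 2 of mouse 1 to tumor 1 of mouse 2, 42 linked it to tumor 2 of mouse 3, and 24 linked the right tumors of mice 4 and 5. Over all 90 pairs of samples from different mice, the median was 0 and 10 pairs shared at least 10. In these bulk samples, fewer sorted cells and less DNA recovered per cell cannot be told apart. How sequences came to be shared was not tested, and the main results are given below with and without such sequences. Leaving them out drops them in every mouse, also where they are largest. It removes on average 10.5% of out-of-frame templates for TdLN, 47.8% for tumor 1 and 63.0% for tumor 2, with a range of 0.0848% to 86.9% in tumor 1.

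Out-of-frame rearrangements made up a larger share of unique rearrangements in tumors than in the TdLN. In the TdLN of mice 1 to 5 the share was 34.4%, 34.02%, 39.95%, 32.3% and 36.3%. In tumor 1 it was 43.9%, 50.4%, 46.7%, 45.6% and 42.0%, and in tumor 2 it was 42.7%, 45.1%, 49.2%, 50.5% and 42.4%. Every tumor sample lay above every TdLN sample. Means over 5 samples (± SD) were 35.4% ± 2.92 for TdLN, 45.7% ± 3.15 for tumor 1 and 46.0% ± 3.71 for tumor 2. The exact two-sided permutation test of the difference of means gave p = 0.00794 for each tumor against the TdLN, the smallest that 5 against 5 samples allow, and an adjusted p of 0.0238 over the family of 21 tests. Tumor 1 and tumor 2 differed by less than the spread between mice (adjusted p = 0.905, exact permutation test). Without any rearrangement, of whatever frame, found in another mouse, the differences were 11.7 and 13.1 percentage points (adjusted p = 0.0208 for each, exact permutation tests). With only the out-of-frame ones of these left out, which lowers the share by construction, they were 8.13 (adjusted p = 0.0417) and 2.12 (adjusted p = 0.676). Library names are written in different ways for mice 1 to 3 and for mice 4 and 5. Within these sets the tumor 1 difference was 10.9 and 9.52 percentage points and that of tumor 2 was 9.56 and 12.1. For the smallest sample, tumor 2 of mouse 4, the 95% Wilson interval was 40.99% to 59.9%.

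**Figure D1:**
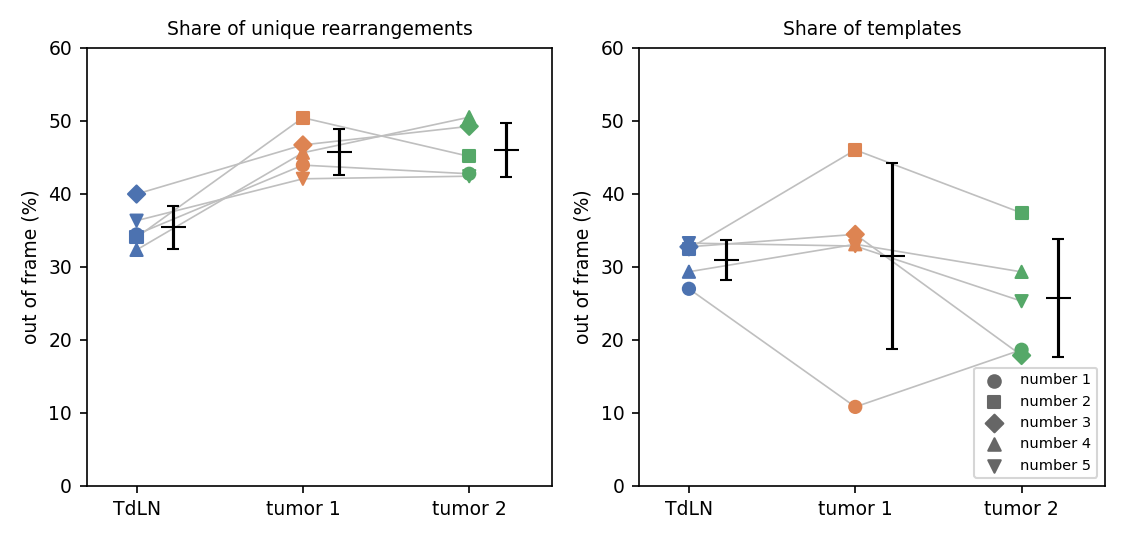
Out-of-frame share of unique rearrangements (left) and of templates (right) in percent for each sample. Marker shapes stand for the mouse number, grey lines join the samples of one mouse, and black bars give the mean ± SD of 5 samples. On the left all tumor samples, at 42.0% or more, lie above the highest TdLN sample at 39.95%, whereas on the right the tissues overlap.

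By templates the tissues overlapped. The out-of-frame share of templates was 27.0%, 32.5%, 32.7%, 29.3% and 33.2% in the TdLN of mice 1 to 5. It was 10.8%, 46.0%, 34.4%, 33.1% and 32.8% in tumor 1 and 18.6%, 37.4%, 17.8%, 29.3% and 25.3% in tumor 2. The widest spread was in tumor 1, between mouse 1 at 10.8% and mouse 2 at 46.0%. In tumor 1 of mouse 1, 2948 of 6885 templates belong to a single entry listed as productive, Trbv16 with Trbj2-7. Its amino acid sequence is given as GSYEQYF, without the C that opens those of the productive partners printed below. Whether it encodes a receptor was not tested, and it counts as productive throughout. The difference from the TdLN was 0.484 percentage points for tumor 1 (adjusted p = 0.905) and -5.26 for tumor 2 (adjusted p = 0.375, exact permutation tests). Without any rearrangement found in another mouse the differences were 8.15 (adjusted p = 0.111) and 5.51 percentage points (adjusted p = 0.227), so that the sign for tumor 2 turned. With only the out-of-frame ones left out, which again lowers the share by construction, they were -10.9 (adjusted p = 0.288) and -17.7 (adjusted p = 0.0417).

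Tumors also held more small out-of-frame entries that closely resemble a far larger rearrangement. Near copies were defined as out-of-frame entries within 3 edits of a rearrangement of the same sample with at least 50 times as many templates. In the TdLN they numbered 22, 6, 19, 0 and 0, in tumor 1 they numbered 48, 68, 33, 88 and 46, and in tumor 2 they numbered 38, 44, 58, 0 and 25. A near copy requires a rearrangement of at least 50 templates, which the TdLN of mice 4 and 5 and tumor 2 of mouse 4 lacked, so that the 0 in these follows from the definition. In the other samples near copies made up 1.91% of 2456 TdLN, 23.0% of 1232 tumor 1 and 14.2% of 1161 tumor 2 out-of-frame entries. The largest rearrangement of these samples had 113 to 409 templates for TdLN, 679 to 2948 for tumor 1 and 529 to 1335 for tumor 2, and its part in the number of near copies was not tested. Over all samples near copies made up 0.549%, 23.0% and 13.6% of out-of-frame entries in the same order. By the same definition, near copies among productive entries of all samples made up 0.210%, 10.9% and 8.66%. Of the 283 out-of-frame ones in tumor 1, 235 were within 1 edit, 187 resembled a productive rearrangement and 210 had a single template. The following entries of tumor 1 of mouse 1 are shown to make this visible. The near copies are printed in lower case throughout, so that their junctions are not marked.
largest productive rearrangement, Trbv16 with Trbj2-7: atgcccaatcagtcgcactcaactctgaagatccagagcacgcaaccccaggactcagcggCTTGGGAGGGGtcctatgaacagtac
near copy lacking its base 46: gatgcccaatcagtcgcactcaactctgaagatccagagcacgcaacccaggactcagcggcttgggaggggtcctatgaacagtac
near copy lacking its base 33: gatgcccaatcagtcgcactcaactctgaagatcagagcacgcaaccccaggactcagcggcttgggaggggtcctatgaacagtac

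Positions count from 1 at the 5′ end of the largest rearrangement. That rearrangement is listed with a V trimming of 25 bases and 6 N bases, and as productive with the amino acid sequence GSYEQYF. The near copy lacking base 46 is listed with 38 trimmed V bases and 18 N bases, and the near copy lacking base 33 with 53 and 33. With near copies of all frames left out, the share of unique rearrangements was still higher than in the TdLN, by 7.13 percentage points in tumor 1 (adjusted p = 0.0370) and 9.34 in tumor 2 (adjusted p = 0.0278, exact permutation tests). With only out-of-frame near copies left out, which lowers the share by construction, tumor 1 did not pass (4.35 percentage points, adjusted p = 0.130) and tumor 2 did (7.24, adjusted p = 0.0417). Thinned to 338 templates per sample, the expected shares were 32.0% ± 1.74 for TdLN, 35.1% ± 2.41 for tumor 1 and 38.8% ± 6.63 for tumor 2 (SD, n = 5), with adjusted p = 0.0714 for tumor 1, which did not pass, and 0.0238 for tumor 2, which did (exact permutation tests).

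Out-of-frame templates were concentrated in few rearrangements in tumors and spread over many in the TdLN. The largest held 10.9%, 6.02%, 4.85%, 0.625% and 0.695% of out-of-frame templates in the TdLN of mice 1 to 5. It held 17.1%, 30.04%, 76.6%, 51.0% and 30.2% in tumor 1 and 13.2%, 30.1%, 13.2%, 20.2% and 7.67% in tumor 2. In tumor 1 of mouse 3, Trbv20 with Trbj1-2 thus accounted for most out-of-frame templates. Singletons were the most common size throughout, at 74.7% ± 4.04 of out-of-frame entries for TdLN, 67.0% ± 3.95 for tumor 1 and 75.6% ± 8.51 for tumor 2 (SD, n = 5). Among productive rearrangements they made up 61.7% ± 6.48, 48.4% ± 5.02 and 52.8% ± 7.69. The mean number of templates per out-of-frame entry was 1.75 ± 0.389 for TdLN, 9.01 ± 3.98 for tumor 1 and 3.64 ± 2.01 for tumor 2, and per productive entry it was 2.19 ± 0.701, 17.3 ± 5.91 and 9.93 ± 6.49.

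**Figure D2:**
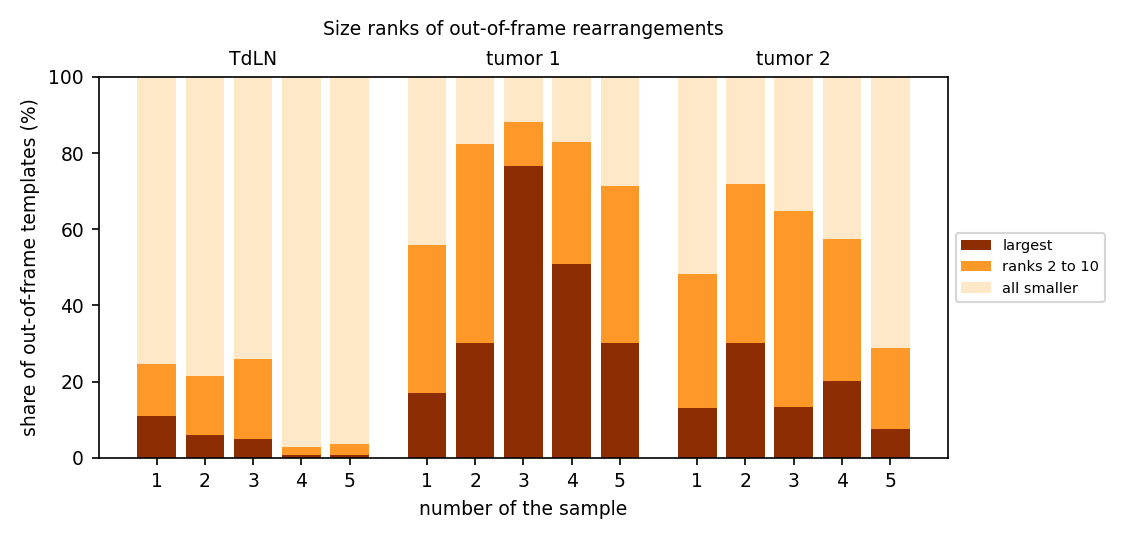
Share of out-of-frame templates in percent held by the largest rearrangement, by ranks 2 to 10 and by all smaller ones, for each of the 15 samples. The 10 largest hold 55.9% to 88.1% in tumor 1, 28.8% to 72.002% in tumor 2 and 2.96% to 25.9% in the TdLN.

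Simpson clonality measures this concentration: each template share is squared, the squares are added, and the root of the sum is taken, so that 1 means a single rearrangement. It was 0.127, 0.0895, 0.0964, 0.0229 and 0.0234 in the TdLN of mice 1 to 5. In tumor 1 it was 0.223, 0.430, 0.767, 0.544 and 0.348, above every TdLN sample, and in tumor 2 it was 0.196, 0.391, 0.237, 0.279 and 0.122, where mouse 5 lay within the TdLN range. Tumor 1 exceeded the TdLN by 0.391 (adjusted p = 0.0238) and tumor 2 by 0.173 (adjusted p = 0.0417, exact permutation tests). With the replicate block, which permutes tissues within a mouse, the tumor 2 difference did not pass (adjusted p = 0.407), whereas that of tumor 1 did (adjusted p = 0.00540). Without rearrangements found in another mouse the differences were 0.246 and 0.0749, smaller by more than 1.5 times, and still passed (adjusted p = 0.0208 for each, exact permutation tests). Tumor 1 against tumor 2 did not pass (difference 0.218, higher in 5 of 5 mice, adjusted p = 0.150). Productive clonality had means of 0.0644, 0.403 and 0.302 in the same order of tissues.

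The junctions of out-of-frame rearrangements had on average more N bases and more trimmed V bases in tumors. Mean N insertions were 4.72, 4.60, 4.42, 3.96 and 4.03 bases in the TdLN of mice 1 to 5. They were 6.73, 6.61, 5.97, 6.76 and 5.31 in tumor 1 and 6.06, 6.26, 6.41, 9.40 and 5.92 in tumor 2. Each tumor sample exceeded each TdLN sample, by 1.93 bases on average for tumor 1 and 2.47 for tumor 2 (adjusted p = 0.0238 for both, exact permutation tests). Mean V trimming was 3.08 ± 0.266 bases for TdLN, 5.69 ± 1.21 for tumor 1 and 6.29 ± 1.78 for tumor 2 (SD, n = 5; adjusted p = 0.0238 for both tumors, exact permutation tests). Without rearrangements found in another mouse the differences were 2.01 and 3.09 N bases and 2.72 and 4.10 trimmed V bases and still passed (adjusted p = 0.0208 for each, exact permutation tests). With the replicate block neither tumor 1 difference passed (adjusted p = 0.0880 for each). In productive rearrangements mean N insertions were 3.59 ± 0.306, 4.07 ± 0.306 and 3.84 ± 0.238 in the TdLN, tumor 1 and tumor 2.

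These averages differed between small and large entries. Out-of-frame rearrangements of 10 or more templates had 3.74 ± 1.38 N bases for TdLN, 3.87 ± 1.09 for tumor 1 and 3.93 ± 1.41 for tumor 2 (SD over 5 samples), and their V trimming was 2.46 ± 0.900, 2.34 ± 0.296 and 2.09 ± 1.05 bases. Singletons had 4.49 ± 0.362, 6.98 ± 0.711 and 7.42 ± 1.54 N bases. Weighted by templates, N insertions of tumor 1 exceeded those of the TdLN by 0.137 bases and V trimming by 0.0233 bases (adjusted p = 0.992 for each, exact permutation tests). 

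A separate group of small entries stood out in the histogram of V trimming, with 17 to 20 trimmed V bases and no trimmed J base. This window was chosen after the values were seen. Besides near copies there were 202 such entries, of which 187 were singletons and the largest had 3 templates. Their number stayed between 8 and 21 in every sample, with 17, 8, 15, 12 and 18 in the TdLN, 9, 12, 11, 14 and 13 in tumor 1 and 9, 12, 19, 12 and 21 in tumor 2, although the number of out-of-frame entries ran from 52 to 3322. They made up 1.20% ± 0.826 of out-of-frame entries for TdLN, 4.95% ± 0.980 for tumor 1 and 9.11% ± 8.20 for tumor 2 (SD, n = 5), and reached 23.1% in tumor 2 of mouse 4. They had 15.7 ± 4.51 N bases (SD over entries), against 4.20 ± 3.74 in all other out-of-frame entries without near copies. Trbj2-2 and Trbj1-1 held 62.9% of them against 11.7% of the others, and 40.1% had a V pseudogene against 5.27%. Of all 41 out-of-frame entries with Trbv27, a V pseudogene, 39 were in this group. The examples show the untrimmed J. Their junctions have 11 and 9 N bases, fewer than the mean of the group.
tumor 1 of mouse 1, Trbv13-1 with Trbj2-2: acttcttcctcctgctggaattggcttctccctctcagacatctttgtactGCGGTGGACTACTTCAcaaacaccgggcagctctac
tumor 2 of mouse 4, Trbv23 with Trbj2-2: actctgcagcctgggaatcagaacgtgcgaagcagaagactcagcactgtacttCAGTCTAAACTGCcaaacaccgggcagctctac

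**Figure D3:**
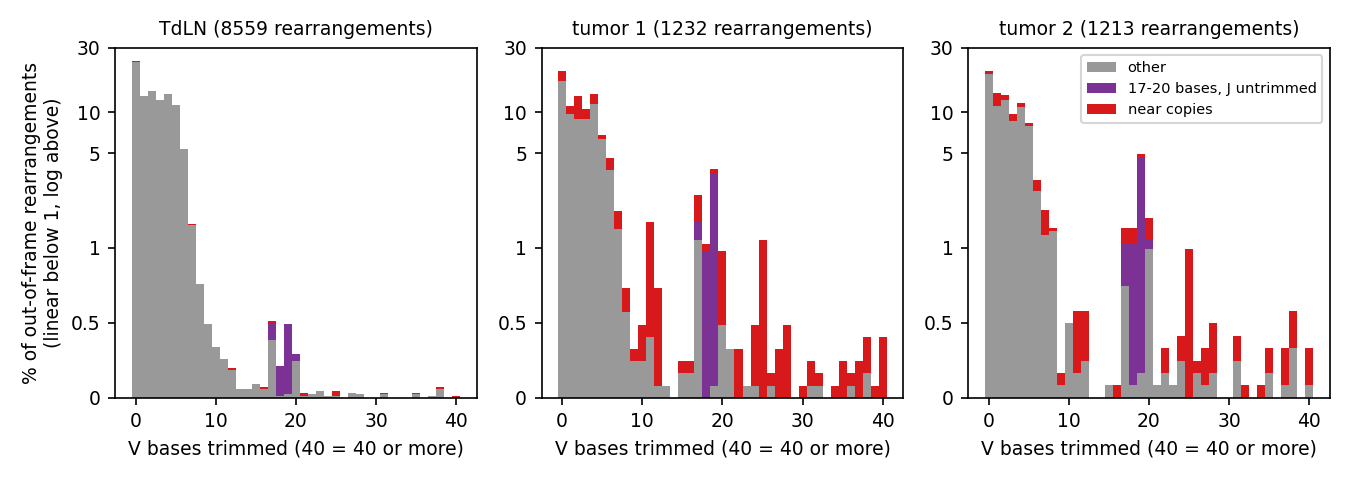
Percent of out-of-frame rearrangements by number of trimmed V bases, pooled over the 5 samples of each tissue, with a vertical axis that is linear below 1% and logarithmic above. Grey stands for most entries, purple for those with 17 to 20 trimmed V bases and an untrimmed J, and red for near copies. In the tumors red and purple make up nearly all of the bars at 18 and 19 bases and most of those beyond 20.

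With near copies and this group both left out, N insertions were 4.17 ± 0.227 bases for TdLN, 4.68 ± 0.437 for tumor 1 and 5.38 ± 1.26 for tumor 2 (SD, n = 5). The differences from the TdLN were 0.511 and 1.21 bases and did not pass (adjusted p = 0.117 and 0.0833, exact permutation tests). V trimming was then 2.82 ± 0.111, 3.34 ± 0.174 and 4.05 ± 1.35 bases and still passed (adjusted p = 0.0417 for both tumors). With both left out in all frames, the share of unique rearrangements was higher than in the TdLN by 6.43 percentage points in tumor 1, which did not pass (adjusted p = 0.0625), and by 7.56 in tumor 2, which did (adjusted p = 0.0333). J trimming had means of 3.05, 3.14 and 3.21 bases in the TdLN, tumor 1 and tumor 2 with all entries, and passed in no comparison. With both groups left out J trimming was higher in tumor 2 than in the TdLN by 0.463 bases (adjusted p = 0.0417, exact permutation test). Leaving out entries with an untrimmed J raises it by construction, and these made up 1.20% of TdLN and 9.11% of tumor 2 entries. With near copies alone left out the difference was 0.119 bases and did not pass, and with only the other group left out it was 0.465.

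The reading frame shift was not even. CDR3 lengths left a remainder of 2 bases on division by 3 in 6150 out-of-frame entries and of 1 base in 4854, so that 55.9% fell in the former class, which was above 50% in 15 of 15 samples. Its share was 55.5% ± 2.21 for TdLN, 57.9% ± 3.52 for tumor 1 and 60.5% ± 4.58 for tumor 2 (SD, n = 5). Near copies are included, and one that lacks 1 CDR3 base of a productive rearrangement falls in this class. In samples without any near copy the share was 53.5% and 55.1% (TdLN of mice 4 and 5) and 55.8% (tumor 2 of mouse 4). The part of near copies in the share was not tested. No out-of-frame entry had a length divisible by 3, and all 18988 other rearrangements did. By J gene the share was highest in Trbj2-7, at 59.8% of 3270 entries, and in Trbj2-3, at 59.1% of 824. In Trbj1-1 and Trbj1-6 it was 50.6% and 50.5%.

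V gene usage of out-of-frame rearrangements was compared as the share of entries per gene. Trbv19 was the most used V gene, at 8.64% ± 0.418 of entries for TdLN, 11.8% ± 5.68 for tumor 1 and 11.1% ± 3.14 for tumor 2 (SD, n = 5). No V gene of the 20 tested, those with a mean share of at least 1%, passed an adjusted p of 0.05 in any of the 3 comparisons (0% called in each). At an unadjusted p under 0.05 there were 3, 3 and 1 for tumor 1 against TdLN, tumor 2 against TdLN and tumor 1 against tumor 2 by the exact permutation test, and limma called 0 in each, with 2, 2 and 1 unadjusted. The first and the second of these comparisons share the TdLN samples.

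The largest differences were as follows. Trbv5 made up 6.42%, 6.38%, 7.53%, 5.50% and 6.53% of entries in the TdLN of mice 1 to 5 and 10.8%, 8.55%, 8.28%, 8.33% and 12.7% in tumor 1. Every tumor 1 sample lay above the TdLN samples, by 3.26 percentage points on average (p = 0.00794, adjusted p = 0.159, exact permutation test). Trbv19 and Trbv16 were next, with differences of 3.15 and 2.88 percentage points and overlapping samples. Between tumor 2 and the TdLN, Trbv16, Trbv12-1 and Trbv19 differed most, by 2.68, -2.65 and 2.47 percentage points. Trbv12-1 was lower in tumor 2 in 5 of 5 mice (adjusted p = 0.106, exact permutation test). Between the tumors these were Trbv13-2, Trbv5 and Trbv2, with tumor 1 minus tumor 2 at -3.10, 2.61 and 2.55 percentage points. Trbv2 was higher in tumor 1 in 5 of 5 mice (adjusted p = 0.159, exact permutation test).

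V segments that GENCODE classes as pseudogenes held 5.65% ± 0.536 of out-of-frame entries for TdLN, 6.93% ± 2.32 for tumor 1 and 5.83% ± 1.39 for tumor 2. In productive entries they held 1.40% ± 0.243, 3.37% ± 2.61 and 2.90% ± 1.39 (SD, n = 5). Trbv24, classed as a pseudogene, had 4.26% of TdLN out-of-frame and 1.11% of TdLN productive entries.

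Trbj2-7 was the most used J gene, with 29.1%, 28.1%, 25.7%, 28.2% and 30.2% of entries in the TdLN of mice 1 to 5. It had 37.9%, 37.4%, 25.4%, 36.2% and 35.6% in tumor 1, above the TdLN in 4 of 5 mice, and the difference of 6.25 percentage points did not pass (adjusted p = 0.286, exact permutation test). Trbj2-1 and Trbj1-1 followed, at -3.25 and -2.38 percentage points. In tumor 2 against TdLN the largest were Trbj2-7, Trbj2-3 and Trbj1-6, at 3.75, -2.16 and -2.05 percentage points. Between the tumors they were Trbj1-1, Trbj2-7 and Trbj2-1, at -3.48, 2.49 and -2.36 percentage points for tumor 1 minus tumor 2. None of the 12 J genes tested passed in any comparison (0% called), with 2 at an unadjusted p under 0.05 in each. limma called 0 in each, with 2, 1 and 2 unadjusted. With the replicate block 1 J gene passed in tumor 2 against TdLN, Trbj1-6, lower by 2.05 percentage points (adjusted p = 0.0494), and 1 between the tumors, Trbj1-1 (adjusted p = 0.0370). limma with the replicate block called 0 J genes in each comparison, with 2, 1 and 1 unadjusted. The Trbj2 cluster as a whole held 70.2% ± 2.07, 73.7% ± 5.03 and 71.3% ± 3.68 of entries in the TdLN, tumor 1 and tumor 2 and passed in no comparison.

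Out-of-frame rearrangements of tumor 1 were found in the TdLN of the same mouse far more often than in that of another. Of the unique out-of-frame rearrangements of tumor 1, 42.1%, 23.9%, 39.6%, 9.29% and 19.1% occurred in the TdLN of mice 1 to 5, against at most 3.59% in the TdLN of another mouse. The mean of 26.8% ± 13.9 (SD, n = 5) exceeded that of every other pairing of the mice (one-sided exact permutation of 120 pairings, p = 0.00833, the smallest possible). The shared ones were large: they held 79.9%, 89.1%, 93.2%, 28.2% and 73.1% of out-of-frame templates of tumor 1. In mouse 2 those found in the TdLN had a mean of 43.9 templates in tumor 1, and those not found had 1.69. The same overlap in productive rearrangements had a mean of 33.1% ± 15.7 and was higher than the out-of-frame one in 5 of 5 mice, by 6.28 ± 4.10 percentage points. The out-of-frame mean was 35.2% in mice 1 to 3 and 14.2% in mice 4 and 5.

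**Figure D4:**
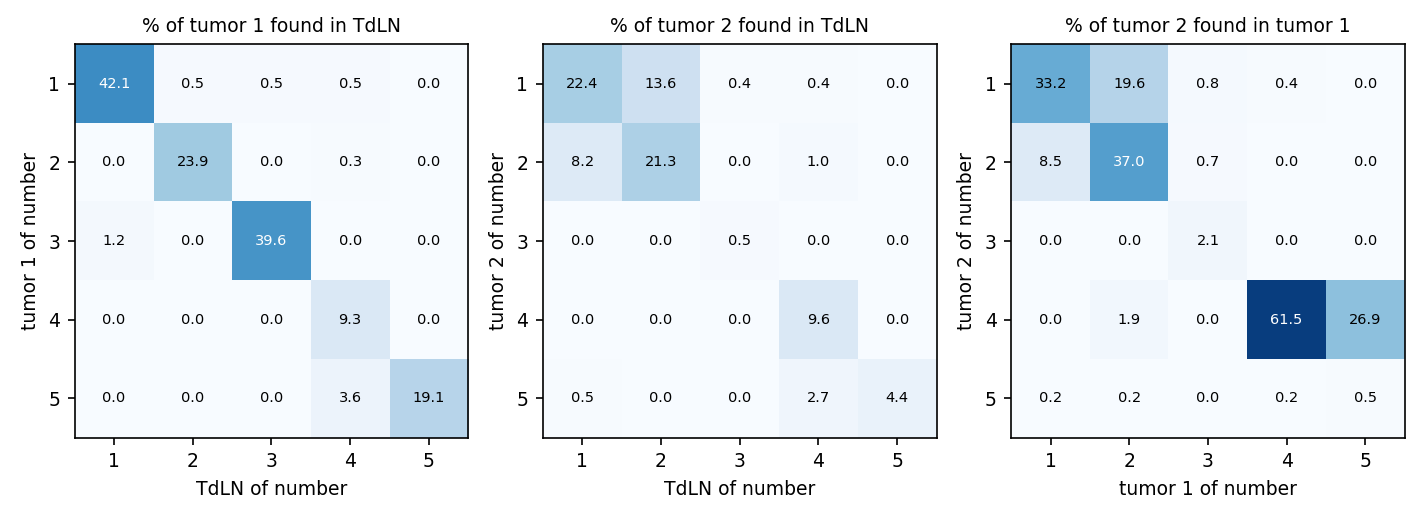
Percent of unique out-of-frame rearrangements of the tumor sample in each row that occur in the sample in each column, for all pairs of mice. The diagonal holds samples of the same number and is highest in every row. Off the diagonal the highest values are 13.6% for tumor 2 of mouse 1 in the TdLN and 26.9% for tumor 2 of mouse 4 in tumor 1.

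For tumor 2 the overlap with the TdLN was 22.4%, 21.3%, 0.518%, 9.62% and 4.36%. The mean of 11.6% ± 9.88 was again the highest of the 120 pairings (p = 0.00833, exact one-sided permutation). However, the TdLN of mouse 2 held 13.6% of those of tumor 2 of mouse 1, and conversely 8.20% of those from the left tumor of mouse 2 were found in mouse 1. In mouse 3 a single rearrangement of 193 was found, Trbv20 with Trbj1-2, and in mouse 5 there were 18 of 413. Without sequences found in another mouse the mean was 9.79% (p = 0.00833, exact permutation).

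Tumor 2 and tumor 1 shared 33.2%, 37.0%, 2.07%, 61.5% and 0.484% of the unique out-of-frame rearrangements of tumor 2 (mean 26.9% ± 25.8, p = 0.00833, exact one-sided permutation). Mice 1, 2 and 4 were thus high and mice 3 and 5 low. With tumor 1 thinned to the templates of its smallest sample the mean was 17.7%, still the highest of the pairings (p = 0.00833, exact permutation). The value of mouse 4 rests on 32 of 52 rearrangements, with a 95% Wilson interval of 48.0% to 73.5%, and 26.9% of these 52 also occurred in tumor 1 of mouse 5. Of all distinct out-of-frame sequences of a mouse, 50, 52, 1, 5 and 2 were found in all 3 of its tissues. Without sequences found in another mouse there were 24, 22, 1, 1 and 2. In mouse 2 those 52 held 71.1% of the out-of-frame templates of the mouse.

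The sequences found in samples of most mice were of different kinds. A rearrangement of Trbv12-2 with Trbj2-7 and 19 N bases occurred in 4 mice, with 1 template in each of 5 tumor samples and in no TdLN. Trbv16 with Trbj1-3 had 63, 26 and 102 templates in tumor 2 of mice 1, 2 and 3 and none in any other sample. Trbv12-2 with Trbj2-5, printed above, had 16, 6 and 111 in the same samples. The 38 shared sequences of at least 20 templates in a sample had 4.45 ± 2.33 N bases, none of them without N bases, against 4.58 ± 4.42 for sequences of 1 mouse only (SD over sequences).

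Large out-of-frame rearrangements, with at least 50 templates over the 3 tissues of a mouse, were compared with productive rearrangements of the same mouse. There were 47 such entries, 10, 11, 14, 5 and 7 in mice 1 to 5, and they held 41.7% of all out-of-frame templates. The smallest inside the threshold had 51 templates and the largest outside it 47. None of the 47 was confined to the TdLN or to tumor 1, 10 occurred in tumor 2 alone, and 22 were found in all 3 tissues. However, 31 of the 47 were also listed for another mouse, and of the other 16 only 2 were found in all 3 tissues. The 31 included 9 of the 10 seen in tumor 2 alone, the exception being Trbv24 with Trbj1-2 of mouse 5 with 54 templates. A productive rearrangement was called a candidate partner if it had 0.5 to 2 times as many templates and if the split of its templates over the tissues differed by a total variation distance of at most 0.1, where 0 is the same split and 1 no tissue in common. Exactly 1 candidate was found for 14 of the 47, none for 5 and several for 28. The same search from each of 98 large productive rearrangements to other productive ones gave 1 candidate for 10, none for 25 and several for 63. The matches below are a description without a test.

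In mouse 2, Trbv22 with Trbj1-5 had 96 templates for TdLN, 1081 for tumor 1 and 453 for tumor 2. Its only candidate was the productive Trbv1 with Trbj1-5, which had 113, 1158 and 498, at a distance of 0.00858. Trbv13-1 with Trbj2-7 had 54, 1000 and 608, and the nearer of its 2 candidates was Trbv17 with Trbj2-7 with 54, 1032 and 707. The other was the same Trbv1 entry, which was thus not a candidate of Trbv22 alone. The partners are printed for comparison with the out-of-frame sequences above.
mouse 2, productive Trbv1 with Trbj1-5: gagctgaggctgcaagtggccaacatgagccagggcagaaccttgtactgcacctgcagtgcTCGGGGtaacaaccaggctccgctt
mouse 2, productive Trbv17 with Trbj2-7: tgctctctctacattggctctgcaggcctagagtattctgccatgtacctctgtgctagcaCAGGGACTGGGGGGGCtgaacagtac

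Both pairs also occurred together in tumor 2 of mouse 1 and in no other sample of another mouse. There Trbv22 had 80 and Trbv1 90 templates, and Trbv13-1 had 120 and Trbv17 85. A further out-of-frame rearrangement of mouse 2, Trbv31 with Trbj2-7, had 28, 413 and 193 templates, and its only candidate, Trbv5 with Trbj2-3, had 13, 335 and 125. That candidate was also the only one of Trbv12-1 with Trbj1-3, which had 28, 153 and 59.

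In mouse 1, Trbv19 with Trbj1-3 had 154, 47 and 8 templates in the TdLN, tumor 1 and tumor 2, and was thus largest in the TdLN. Its only candidate, Trbv13-1 with Trbj2-7, had 205, 62 and 13, at a distance of 0.00815. Trbv29 with Trbj2-1, with 9, 127 and 49, had no candidate and was also listed with 16 in tumor 2 of mouse 2.
mouse 1, productive Trbv13-1 with Trbj2-7: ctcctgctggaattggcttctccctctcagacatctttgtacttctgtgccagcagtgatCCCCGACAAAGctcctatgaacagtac

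In mouse 3, Trbv20 with Trbj1-2 had 95, 1807 and 5 templates, and its only candidate, Trbv12-1 with Trbj1-3, had 106, 2476 and 118. The counts were within 1.5 times of each other in the TdLN and tumor 1, whereas tumor 2 held 5 templates of the former and 118 of the latter. The candidate was also listed with 38 and 25 templates in tumor 2 of mice 1 and 2 and with 31 in tumor 1 of mouse 4, where the out-of-frame rearrangement was not listed. Trbv13-2 with Trbj1-3 had 47, 49 and 0 and its only candidate, Trbv16 with Trbj2-7, 47, 54 and 0.
mouse 3, productive Trbv12-1 with Trbj1-3: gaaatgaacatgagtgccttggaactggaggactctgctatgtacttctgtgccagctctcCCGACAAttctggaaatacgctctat

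In mice 4 and 5 no large out-of-frame rearrangement had exactly 1 candidate. Trbv5 with Trbj2-7, the largest of mouse 4, had 0, 1340 and 13 templates and no candidate. Trbv3 with Trbj1-4 had 7, 466 and 20 and 9 candidates. Both were also listed in tumor 1 of mouse 5, with 38 and 21 templates. In mouse 5, Trbv19 with Trbj2-7 had 32, 533 and 0 and 2 candidates, and Trbv3 with Trbj2-3 had 1, 218 and 0 and 5 candidates. In 11 of the 12 large rearrangements of these mice most templates lay in tumor 1.

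**Figure D5:**
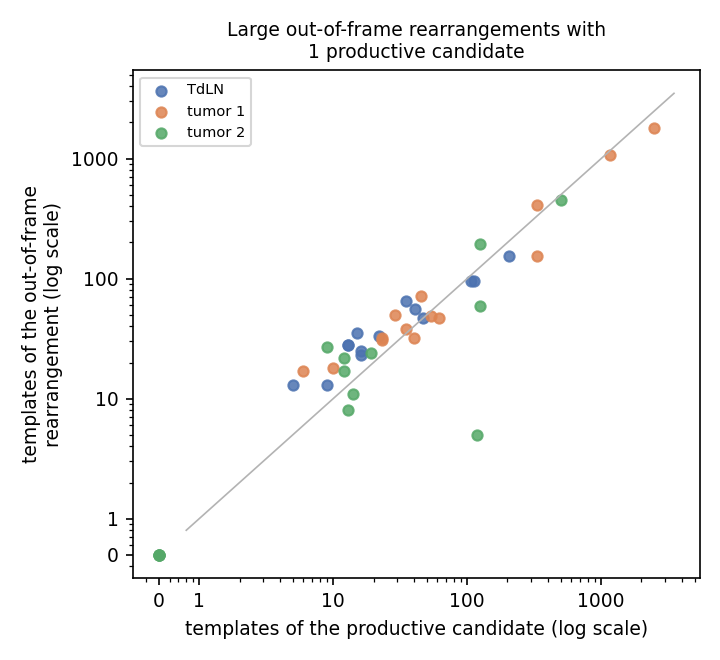
Templates of the 14 large out-of-frame rearrangements with exactly 1 productive candidate against those of the candidate, on log axes, with a point per tissue and 0 drawn at the lower left end. Nearness to the grey line of equal templates follows from how candidates were chosen. The tumor 2 point far below the line is mouse 3, with 5 against 118 templates.

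Over the 14 with exactly 1 candidate, the out-of-frame rearrangement had 0.507 to 2 times the templates of its candidate, with a median ratio of 1.31, a range that the rule itself bounds. In 7 of the 14 the candidate was a candidate of no other large out-of-frame rearrangement, and 9 of the 14 out-of-frame rearrangements were also listed for another mouse. The 44 distinct sequences among the large entries had 4 ± 2.46 N bases and 2.32 ± 2.33 trimmed V bases (SD over sequences), against 4.59 ± 4.44 and 3.48 ± 4.70 for the 10172 smaller ones. None of the large ones was a near copy or belonged to the group with 17 to 20 trimmed V bases. They used 15 V genes, and 16 of the 44 used Trbj2-7.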

How the data were processed

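Genomic DNA of sorted T cells was measured in 15 samples, 3 tissues of 5 mice. Per the labels, the authors sent the DNA to Adaptive Biotechnologies for immunoSEQ. The deposited values are counts of templates per 87-base rearrangement, with other columns for V, D and J genes, trimming, N insertions and reading frame. Software versions were not given in the sources used here, and the labels name the build mm10. Counts were used without normalization. The members, lists and alternatives were chosen with earlier results of these data known.

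Groups and numbers came from the sample titles. The same number was taken as the same mouse. This was checked by the overlap of out-of-frame sequences, the same test as in Results, so that the check and that result are not independent. The overlap had a higher mean within numbers than under any other pairing for all 3 tissue pairs. Tumor 2 samples departed from this: that of mouse 1 shared 101 sequences with tumor 2 of mouse 2 and 83 with its own tumor 1, and that of mouse 3 shared 42 with tumor 2 of mouse 1 and 1 and 4 with its own TdLN and tumor 1. An exchange of samples was not tested. The number served as a replicate block (7776 arrangements of the tissues within numbers). Per-sample measures were compared by two-sided exact permutation of the difference of means (252 splits), Benjamini-Hochberg adjusted over 21 tests, and overlaps by one-sided permutation of 120 pairings. V and J genes were tested in the same way per comparison, and by limma 3.58.1 on log2(percent + 0.5) with R 4.3.3. Named sequences were the 2 with most templates of each mouse and the 3 found in most mice. Named genes were, none being called, the 3 with the largest difference. The 35 V and 14 J names were all matched to GENCODE M21. No V gene was assigned to 5 and no J gene to 16 out-of-frame entries. Shares of single samples carry 95% Wilson intervals, which cover counting error only. A count of 0 allows up to 3 templates. Python 3.11.15, numpy 2.4.6, pandas 2.3.3, scipy 1.17.1 and edlib 1.3.9.post1 were used, and scripts were tested on simulated data. Alternatives covered size, near copies, sharing between mice, weighting, thinning, medians, left-out mice and search thresholds. Of these, 7 were chosen after seeing the data.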

Additional observations from a re-analysis of the deposited data

Results flagged for a closer look

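Of 24 sets of 5 per-sample values (7 measures in 3 tissues and 3 overlaps), 1 held a value far from the others by Dixon's criterion, where chance alone flags about 1 in 20. Mean N insertions of out-of-frame rearrangements in tumor 2 of mouse 4 were 9.40 bases, and the nearest tumor 2 sample had 6.41. That sample had 52 out-of-frame rearrangements and 338 templates in all, and 23.1% of its out-of-frame entries had 17 to 20 trimmed V bases and an untrimmed J. Without those entries its mean was 7.55 bases. The part of depth in this value was not tested.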

How the results depend on the processing

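Of 401 values recomputed with a test under alternatives, 291 kept direction and side of the threshold, 73 lost a call, 7 gained one and 30 reversed. A further 48 values within mice 1 to 3 or mice 4 and 5 had no test, and 6 of them had the opposite sign. The overlaps within a mouse kept their call under all alternatives tried. Differences are tumor minus TdLN, or tumor 1 minus tumor 2, in the units of the report, and causes of changes were not tested, except that leaving out out-of-frame entries alone lowers their shares by construction. The replicate block permutes all 3 tissues within a mouse. With it 3 calls were lost: clonality in tumor 2 (0.173), and N insertions (1.93) and V trimming (2.61) in tumor 1. It gained 1 J gene each in tumor 2 against TdLN and tumor 1 against tumor 2.

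With at least 2 templates, lost calls were the share of unique in tumor 2 (3.42), N insertions (0.954 and 0.669 for tumor 1 and 2) and V trimming (1.22 and 0.776). Trbj2 share in tumor 1 (7.16) gained a call, J trimming in tumor 2 (-0.143) reversed, and tumor 1 minus tumor 2 reversed for share of unique (5.13), N insertions (0.285), V trimming (0.441) and J trimming (0.463). Without out-of-frame near copies, share of unique in tumor 1 (4.35) lost its call, Trbj2 share (5.17) gained one and share of templates (-0.0853) reversed. Without out-of-frame sequences found in another mouse, share of unique in tumor 2 (2.12) lost its call, tumor 1 minus tumor 2 (6.01) and share of templates in tumor 1 (-10.9) reversed, and that in tumor 2 (-17.7) gained a call, whereas with all frames left out no call changed and share of templates in tumor 2 (5.51) reversed. Kept only in the mouse with most templates, share of unique in tumor 2 was 7.17 without a call and tumor 1 minus tumor 2 was 2.53, reversed. Weighted by templates, N insertions (0.137 and 0.911) and V trimming (0.0233 and 0.759) lost their calls, and J trimming (-0.138 and -0.0700), Trbj2 share (-4.41 and -4.25) and Trbj2 share between tumors (-0.157) reversed. Thinned, share of unique in tumor 1 was 3.09 without a call. With medians all 8 calls were lost: share of unique 11.2 and 10.7, clonality 0.341 and 0.148, N insertions 2.19 and 1.84, V trimming 2.13 and 3.13. Even for share of unique, where every tumor sample lay above every TdLN sample, the adjusted p was 0.111 (exact permutation test of medians). With 5 samples per tissue this test could hardly pass, so no conclusion is drawn from these losses. Reversed with medians were Trbj2 share in tumor 2 (-0.332) and, between tumors, share of unique (0.496) and N insertions (0.351).

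Without near copies of all frames no call was lost and Trbj2 share in tumor 1 (5.17) gained one. Without out-of-frame entries of 17 to 20 trimmed V bases and an untrimmed J, share of unique between tumors reversed (0.942) and J trimming in tumor 2 (0.465) gained a call. Without these and near copies, calls were lost for share of unique (3.07 and 4.7997), clonality in tumor 2 (0.191) and N insertions (0.511 and 1.21), J trimming in tumor 2 (0.463) gained one and share of templates in tumor 1 (-0.0730) reversed. With both left out in all frames, calls were lost for share of unique in tumor 1 (6.43), clonality in tumor 2 (0.191) and N insertions (0.511 and 1.21), and J trimming in tumor 2 (0.463) gained one. Without tumor 2 of mouse 4, reversed values were Trbj2 share in tumor 2 (-0.269) and, between tumors, share of unique (0.862), N insertions (0.112) and V trimming (0.145). These settings, those of all frames and keeping sequences only in the mouse with most templates were chosen after seeing the data. By share of templates 7 of 21 V genes tested were called, all lower in tumor 1 than in the TdLN: Trbv1, Trbv12-2, Trbv13-2, Trbv13-3, Trbv15, Trbv17 and Trbv26. Shares of genes within a sample depend on one another. The largest out-of-frame rearrangement held 17.1% to 76.6% of out-of-frame templates in tumor 1, and its part in these calls was not tested. Large rearrangements with exactly 1 candidate numbered 7 with at least 100 templates, 5 with a distance of 0.2 and 0 with no limit on the ratio.

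Leaving out 1 mouse at a time, no difference passed. The lowest adjusted p was 0.075, and 4 against 4 samples allow no unadjusted p under 0.0286. Ranges for tumor 1 and tumor 2 against TdLN were 8.82 to 11.5 and 8.70 to 11.7 for share of unique, 0.321 to 0.464 and 0.141 to 0.199 for clonality, 1.72 to 2.09 and 1.72 to 2.75 for N insertions, and 2.20 to 2.82 and 2.39 to 3.54 for V trimming. Ranges that crossed 0 were Trbj2 share in tumor 2 (-0.816 to 2.48), share of templates in tumor 1 (-2.78 to 4.65) and, between tumors, share of unique (-1.65 to 0.893) and V trimming (-1.13 to 0.0912). N insertions between tumors ran from -0.836 to -0.00882. Depth limits tumor 2 of mouse 4 most, with 338 templates, where a count of 0 allows up to 3.03% of its out-of-frame templates.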
